A study of Homo sapiens with 35 samples.

Results

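The subunits of the oxidative phosphorylation machinery were followed as cells of H1, a widely used line of human embryonic stem cells, were differentiated toward endoderm and mesoderm. Members were chosen by symbol: every NDUFA, NDUFB, NDUFC, NDUFS and NDUFV gene (complex I, assembly factors named NDUFAF left out), SDHA to SDHD (complex II), UQCR genes and CYC1 (complex III), CYCS (cytochrome c), COX4 to COX8 subunits (complex IV) and ATP5 subunits (complex V). This gave 84 nuclear genes of 16103 in the bulk table and 89 of 33515 in the single-cell matrices. The 13 mitochondrially encoded subunits (7 of complex I, 1 of complex III, 3 of complex IV and 2 of complex V) were described apart. By complex, the bulk members were 39 for I, 4 for II, 10 for III, 1 for cytochrome c, 12 for IV and 18 for V. NDUFA4 and its relative NDUFA4L2 are counted with complex I by name, although NDUFA4 was later placed with complex IV. A further 5 complex IV genes (COX4I2, COX6A2, COX7A1, COX7B2 and COX8C) were listed only in the single-cell matrices. The ATP synthase inhibitor ATP5IF1 and the read-through loci ATP5MF-PTCD1 and NDUFC2-KCTD14 matched the prefixes but are not subunits and were not counted as members.

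The study profiled stem cells as they were driven toward definitive endoderm with AA (Activin A in the growth protocol, at 100 ng/ml) or with the compounds labelled BRD and JNJ, mostly together with CHIR (CHIR99021, an inhibitor of GSK3 that turns on Wnt signalling, at 3 µM). Bulk groups of 2 libraries each were unsorted at 6 h (None, CHIR, AA+CHIR, BRD+CHIR, JNJ+CHIR, and BRD without CHIR) and at 24 h (CHIR, AA+CHIR, BRD+CHIR, JNJ+CHIR, and BRD without CHIR). Groups labelled Sorted DE at 72 h were AA+CHIR-AA-AA, BRD+CHIR-BRD-BRD, BRD+LoAA+CHIR-BRD+LoAA-BRD+LoAA and JNJ+CHIR-JNJ-JNJ, called AA, BRD, BRD+LoAA and JNJ endoderm below. Single-cell libraries, 1 per group and made after cell sorting, were cells at 36 h (AA+CHIR-AA, primitive streak by label), endoderm at 72 h (AA+CHIR-AA) and mesoderm at 72 h (STEMdiff Mesoderm Induction). The untreated pair at 24 h was not analysed here. All groups are of 1 cell line, and the labels do not say whether the libraries of a group came from separate cultures, so p-values measure only the spread between these libraries, which may be technical.

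Oxidative phosphorylation passes electrons from NADH (complex I) and succinate (complex II) through complex III and cytochrome c to oxygen at complex IV, and the proton gradient built on the way drives ATP synthase, complex V. Complex II is made of nuclear products only, while the other complexes join nuclear subunits with a few made from mitochondrial DNA. Pluripotent stem cells are known for a strong reliance on glycolysis, and the balance with respiration shifts as germ layers form. Nuclear respiratory factor 1 (NRF1), GABP of the ETS family and YY1 are known activators of many subunit genes, and the hypoxia-inducible factors are known to bind short motifs with the core ACGTG or GCGTG.

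The 5′ flanks of 3 genes are shown because the results turn on them: NDUFA4L2 was the subunit gene most in excess at 72 h over 36 h in single cells, CYCS was the one most reduced there, and ATP5PD was called lower in all 3 compound-made endoderms, also without each library in turn. Each stretch runs 5′ to 3′ toward the start of transcription as RefSeq gives it on GRCh38.p14, on the strand of the gene, with any annotated exon left out. Capitals mark the letters searched: GCGTG or ACGTG (hypoxia response, read as CACGC or CACGT on the other strand), CCGGAAGT (ETS family), GCGCA followed by any base and GCGC (NRF1) and AAGATGGCG (YY1), each on both strands.
NDUFA4L2, chr12:57240745-57240994, minus strand: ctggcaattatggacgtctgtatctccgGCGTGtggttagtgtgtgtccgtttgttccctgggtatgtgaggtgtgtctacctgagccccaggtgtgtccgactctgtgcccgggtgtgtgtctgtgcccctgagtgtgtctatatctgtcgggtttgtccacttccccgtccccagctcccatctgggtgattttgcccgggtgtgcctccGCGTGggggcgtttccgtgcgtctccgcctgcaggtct
CYCS, chr7:25125362-25125510, minus strand: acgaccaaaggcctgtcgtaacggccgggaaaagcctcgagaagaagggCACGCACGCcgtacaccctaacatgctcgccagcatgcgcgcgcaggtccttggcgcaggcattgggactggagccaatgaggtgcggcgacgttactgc
ATP5PD, chr17:75046986-75047183, minus strand: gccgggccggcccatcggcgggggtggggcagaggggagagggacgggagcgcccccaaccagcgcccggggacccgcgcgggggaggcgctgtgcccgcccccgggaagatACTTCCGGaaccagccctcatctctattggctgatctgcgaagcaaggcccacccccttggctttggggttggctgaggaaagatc
The NDUFA4L2 stretch held 2 GCGTG motifs, which begin 222 and 38 bases before the start. The CYCS stretch held 2 as well, overlapping each other at 201 and 197 bases before the start, and the ATP5PD stretch held 1 ETS motif, 102 bases before it. The CYCS stretch ends 102 bases before the start. Over the 300 bases searched around the start, CYCS held 3 GCGTG motifs and 1 ACGTG motif. Among 27305 promoters of 300 bases (250 before to 50 after the start), 73 of the 89 nuclear members were matched. The NRF1 motif was in 17 of the 73 (23.3%, against 6.28% of all promoters), the ETS motif in 10 (13.7% against 4.44%) and the YY1 motif in 8 (11.0% against 1.85%). The short hypoxia motifs were common everywhere: ACGTG was in 18 (24.7% against 21.6%) and GCGTG in 35 (47.9% against 36.3%). A match is a string of letters and not a bound site, and the lack of an exact match does not show that a site is absent.

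Bulk libraries were numbered in 3 series by their titles, and each series was fitted alone: series 33 (the 6 h groups with CHIR or None, 10785015 to 17150938 counts per library), series 38 (the 24 h groups with CHIR, 12981466 to 29627091 counts per library) and series 46 (the 72 h groups and BRD without CHIR, 4572385 to 49503832 counts per library). Levels are CPM (counts scaled to a common library size, with TMM factors), and changes are log2 differences from edgeR's quasi-likelihood test, adjusted by Benjamini-Hochberg over all genes tested (14780, 15319 and 14455) and called under 0.05. In each series 83 of the 84 nuclear members passed the filter on low counts, and all 13 mitochondrially encoded ones did. The endoderm markers CER1, SOX17, CXCR4 and FOXA2 were at 4238, 409, 138 and 18.0 CPM on average in AA endoderm at 72 h. In BRD, JNJ and BRD+LoAA endoderm CER1 was at 73.4, 101 and 70.5 CPM and SOX17 at 248, 251 and 240. CXCR4 was at 112, 123.5 and 84.9 CPM there, and FOXA2 at 60.9, 57.3 and 52.8, above AA endoderm. The neural markers PAX6 and SOX1 were not analysed in bulk. Humanin-like MTRNR2L genes, near-copies of mitochondrial ribosomal RNA, took 0.552 to 1.1% of counts in series 33, 0.247 to 0.313% in series 38 and 7.58 to 13.9% in series 46.

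Subunit transcripts took the largest share of counts in the 6 h libraries of series 33 and the smallest at 72 h. The nuclear members together reached 9576 to 11090 CPM in series 33, 5535 to 5955 in series 38 and 3643 to 5595 in series 46. The mitochondrially encoded genes reached 44240 to 50480, 29510 to 33970 and 8868 to 27440 CPM in the same order. The ranges of series 33 lay above those of the other series for both classes. Series, time point and treatment changed together here, so their parts in these levels cannot be told apart. The labels do not say what the series are. BRD without CHIR at 6 h, in series 46, had 5138 ± 410 CPM of nuclear members (SD, n = 2), against 9778 ± 286 for BRD+CHIR at the same hour in series 33. In bulk RNA, fewer cells of a type and less RNA per cell cannot be told apart.

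**Figure D1:**
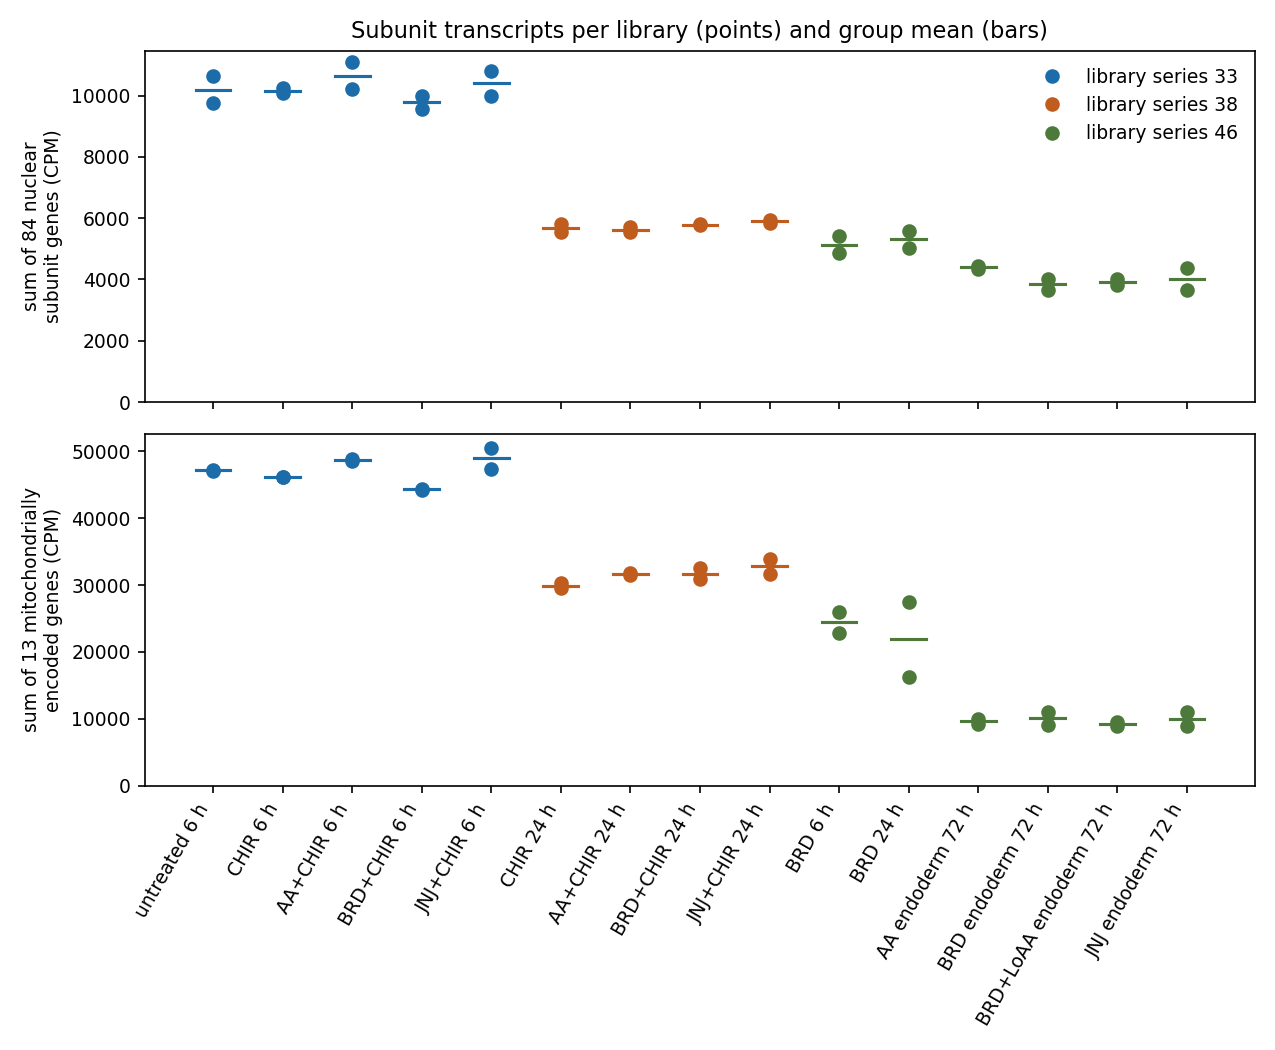
Summed levels of the 84 nuclear subunit genes (top) and the 13 mitochondrially encoded genes (bottom), in CPM, for each of the 30 bulk libraries (points) with group means (bars), coloured by library series. Nuclear members lie from 9576 to 11090 CPM in series 33, from 5535 to 5955 in series 38 and from 3643 to 5595 in series 46. Mitochondrially encoded genes lie from 8868 to 27440 CPM in series 46, where BRD without CHIR at 24 h has libraries far apart.

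The make-up of the mitochondrial signal was alike in series 33 and 38 and varied within series 46. MT-CO1, the catalytic core subunit of complex IV, made 23.1 to 25.6% of the mitochondrially encoded sum in series 33 and 23.8 to 26.1% in series 38. At 72 h in series 46 it made 71.8 to 85.1%. BRD without CHIR lay between, with 39.3% and 45.6% at 6 h and 60.4% and 34.3% at 24 h. Without MT-CO1 the other 12 genes summed to 1633 to 2631 CPM at 72 h. Nuclear copies of mitochondrial sequence are nearly identical to these genes, and how the authors' counting split such reads is not given in the sources used here. UQCRH, the hinge subunit of complex III, and its copy UQCRHL also differed between the series. UQCRH had 310 to 361 CPM in series 33, 23.2 to 47.8 in series 38 and 12.0 to 35.7 in series 46. UQCRHL had 67.0 to 101 CPM in series 38 and at most 2.65 in the other series. Their sum was 310 to 362, 101 to 125 and 12.2 to 36.5 CPM. As near-identical copies, both are reported as uncertain.

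At 6 h no nuclear subunit gene was called higher or lower in any of 5 comparisons, and none of the mitochondrially encoded genes was. Over all genes, 2.78% were called for CHIR against None, 1.35% for AA+CHIR against CHIR, 0.0% for BRD+CHIR against CHIR, 0.0135% for JNJ+CHIR against CHIR and 0.0203% for BRD+CHIR against JNJ+CHIR. The numbers of nuclear members at an unadjusted p under 0.05 in edgeR were 5, 7, 1, 4 and 13 of 83 in that order (6.02, 8.43, 1.2, 4.82 and 15.7%, against 12.3, 9.70, 2.55, 3.87 and 4.69% of all genes). DESeq2 and limma-voom called none in these comparisons either, and leaving out 1 library gave 1 call in AA+CHIR against CHIR, without AA+CHIR replicate 2. Median changes of the members were small: -0.02 for CHIR, 0.09 for AA+CHIR, -0.05 for BRD+CHIR and 0.04 for JNJ+CHIR, beside an all-gene median of 0.

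The members that moved most at 6 h were not called after adjustment over all genes. NDUFA7, an accessory subunit of complex I, had 26.9 ± 1.70 CPM (SD, n = 2) with CHIR and 38.3 ± 3.62 with None, a log2 change of -0.51 (SE 0.18, edgeR adjusted p = 0.211). SDHB, the iron-sulphur subunit of complex II, had 30.0 ± 0.887 against 40.5 ± 7.14 CPM (log2 -0.43, edgeR adjusted p = 0.2), and NDUFS4, a complex I subunit, had 85.2 ± 13.4 against 69.8 ± 12.96 (log2 0.29, edgeR adjusted p = 0.335). For NDUFA7 and SDHB the 2 groups did not overlap, and for NDUFS4 they did. The 95% intervals were -0.98 to -0.04 for NDUFA7, -0.83 to -0.04 for SDHB and -0.03 to 0.61 for NDUFS4. With AA+CHIR against CHIR the largest were NDUFA8 (0.52), SDHC (-0.38) and UQCR11 (0.33), with edgeR adjusted p between 0.322 and 0.439. With BRD+CHIR against CHIR they were ATP5MC3 (-0.58), a gene for the rotating c-subunit of ATP synthase, SDHC (-0.42) and NDUFA8 (0.33), each with edgeR adjusted p = 1. With JNJ+CHIR against CHIR they were NDUFA7 (0.57), NDUFA8 (0.40) and NDUFC1 (0.39), again each at an edgeR adjusted p of 1.

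BRD+CHIR and JNJ+CHIR, compared directly at 6 h, had no member called. Their sums were 44330 ± 127 CPM with BRD+CHIR and 48950 ± 2164 with JNJ+CHIR (SD, n = 2). All 13 genes were lower with BRD+CHIR, by a median of -0.18, and 12 of them were at an unadjusted p under 0.05 in edgeR, but none after adjustment (smallest adjusted p = 0.679). The 13 genes come from 1 molecule and are not independent. The nuclear members had a median of -0.08, and the largest change was in ATP5MC3 (213 ± 55.8 against 364 ± 139 CPM, log2 -0.77, 95% interval -1.53 to -0.02, edgeR adjusted p = 0.999). NDUFB6 (-0.49) and NDUFB7 (-0.37), accessory subunits of complex I, followed, at the same edgeR adjusted p of 0.999. That no member was called does not show that the compounds act alike.

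At 24 h the nuclear subunit genes had no call in any of 4 comparisons. The spread within groups was wider than at 6 h: edgeR's common coefficient of variation was 0.457 in series 38 and 0.154 in series 33. Genes at 0 counts in 1 library of a group and at least 50 in the other numbered 112 to 298 in series 38. In series 33 they numbered 11 to 20, and none was a nuclear member in either series. Over all genes, 3.24% were called for AA+CHIR against CHIR, 0.0% for BRD+CHIR against CHIR, 0.359% for JNJ+CHIR against CHIR and 0.32% for BRD+CHIR against JNJ+CHIR. Nuclear members at an unadjusted p under 0.05 in edgeR numbered 4, 1, 10 and 4 of 83 in that order (4.82, 1.2, 12.0 and 4.82%, against 12.6, 3.79, 8.23 and 7.49% of all genes). DESeq2 called 2, 1, 3 and 2 nuclear members, and the share of all genes it called is not reported here. The summed nuclear levels were 5628 ± 132 CPM with AA+CHIR, 5672 ± 193 with CHIR, 5792 ± 29 with BRD+CHIR and 5898 ± 79.9 with JNJ+CHIR (SD, n = 2), and median changes lay between -0.06 and 0.03.

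The single call at 24 h was mitochondrial. MT-CO2, the subunit of complex IV that takes electrons from cytochrome c, had 2843 and 2806 CPM in the JNJ+CHIR libraries and 2399 and 2368 in the CHIR libraries. The groups did not overlap, and the log2 change was 0.25 (SE 0.04, edgeR adjusted p = 0.00555). MT-CO2 was called without each of these libraries in turn, at adjusted p up to 0.0408, but not when the 24 h libraries of BRD without CHIR from series 46 joined the fit (JNJ+CHIR vs CHIR, 24 h, adjusted p = 0.821). Of the 13 mitochondrially encoded genes, 12 were higher with JNJ+CHIR (median 0.14) and 9 were at an unadjusted p under 0.05 in edgeR.

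Nuclear members with the largest changes at 24 h were not called. With AA+CHIR against CHIR, NDUFC1 (12.3 ± 1.93 against 19.5 ± 0.146 CPM, log2 -0.67) and NDUFS4 (30.0 ± 5.24 against 47.1 ± 13.3, log2 -0.65) were lower, and NDUFA6 was higher (74.0 ± 6.30 against 51.3 ± 3.17, log2 0.53). Their edgeR adjusted p were 0.436, 0.196 and 0.153. With BRD+CHIR against CHIR, ATP5MG, a small membrane subunit of ATP synthase, had 103 ± 7.83 against 66.9 ± 8.48 CPM (log2 0.62, edgeR adjusted p = 0.56), followed by NDUFC2 (0.66) and NDUFC1 (-0.64) at an adjusted p of 1. With JNJ+CHIR against CHIR they were COX6B2 (1.16), NDUFC2 (0.93) and NDUFA12 (0.93), with edgeR adjusted p from 0.482 to 0.802. BRD+CHIR against JNJ+CHIR gave NDUFA2 (-0.77, 95% interval -2.00 to 0.46), ATP5MC1 (0.77, 95% interval -0.18 to 1.71) and UQCRH (-0.73, 95% interval -1.41 to -0.06), with edgeR adjusted p from 0.382 to 0.734. Whether the effect of AA, BRD or JNJ on a member differed between 6 h and 24 h was tested in 1 fit over series 33 and 38, and 0 of 97 genes (the 84 nuclear members and the 13 mitochondrially encoded ones) were called, with smallest edgeR adjusted p of 0.185, 0.908 and 0.119, beside 1.76, 0.0 and 0.0447% of all genes called. At an unadjusted p under 0.05 in edgeR, 10, 14 and 11 of the 97 passed (10.3, 14.4 and 11.3%, against 11.8, 4.78 and 7.94% of all genes).

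In sorted cells at 72 h some nuclear subunit genes were called against AA endoderm, most of them lower. BRD endoderm had 14 of 83 members lower and none higher (16.9% lower, against 12.4% of all genes called lower). JNJ endoderm had 6 lower and 2 higher (7.23%, against 10.9% of all genes lower), and BRD+LoAA endoderm had 7 lower and none higher (8.43%, against 11.5%). Genes called higher were 11.8, 10.5 and 10.4% of all genes. The share of members called lower was above that of all genes for BRD and below it for the other comparisons, differences that were not tested, and the medians were -0.26, -0.20 and -0.18 beside all-gene medians of 0.02, 0.01 and 0.02. Members below 0 numbered 65, 57 and 59 of 83. At an unadjusted p under 0.05 in edgeR were 23, 13 and 20 of 83 (27.7, 15.7 and 24.1%, against 35.6, 32.8 and 34.9% of all genes). The summed nuclear level was 4394 ± 78.5 CPM in AA endoderm, 3836 ± 272 in BRD, 4022 ± 503 in JNJ and 3918 ± 118 in BRD+LoAA endoderm (SD, n = 2). JNJ replicate 2, at 4378 CPM, lay between the AA libraries, at 4339 and 4450 CPM. All 3 comparisons use the same AA libraries, so a call that recurs in them is not independent support.

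**Figure D2:**
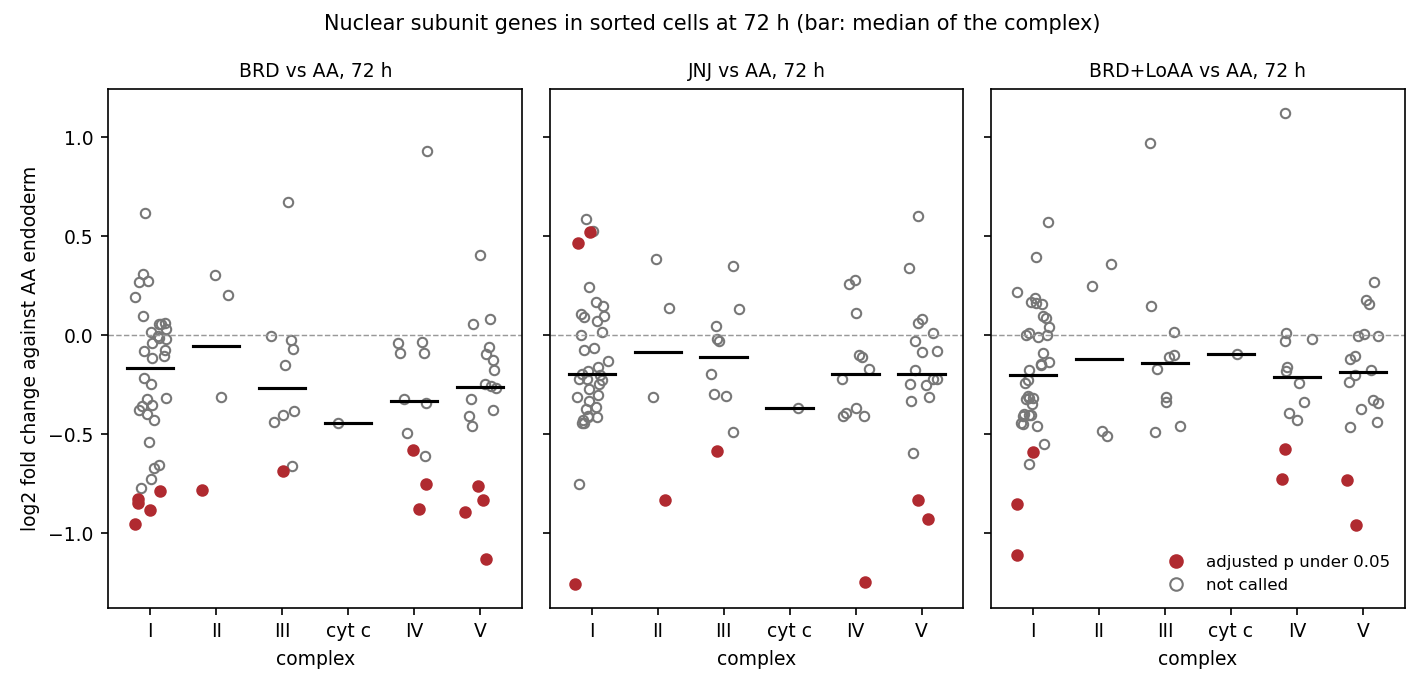
Log2 fold change of each nuclear subunit gene against AA endoderm at 72 h, by complex, for BRD, JNJ and BRD+LoAA endoderm (points: genes, filled where the edgeR adjusted p was under 0.05, bars: median of the complex). Most points lie below 0 in each panel. The called ones spread over complexes I to V for BRD and JNJ, and over complexes I, IV and V for BRD+LoAA endoderm.

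The lower genes were spread over the complexes. In BRD endoderm 5 of 38 complex I genes, 1 of 4 for complex II, 1 of 10 for complex III, 3 of 12 for complex IV and 4 of 18 for complex V were called lower, with medians of -0.17, -0.05, -0.27, -0.33 and -0.26. In JNJ endoderm the counts were 1, 1, 1, 1 and 2, and in BRD+LoAA endoderm 3, 0, 0, 2 and 2.

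ATP synthase gave the clearest of these genes. ATP5PD (chr17:75038863-75046985 on GRCh38, GENCODE v29), subunit d of the peripheral stalk that holds the catalytic head still, had 101 and 101.4 CPM in the AA libraries. It had 53.0 and 40.0 in BRD, 47.5 and 58.6 in JNJ and 47.5 and 56.8 in BRD+LoAA endoderm. Each compound library was well under both AA libraries. The log2 changes were -1.13 (SE 0.17, edgeR adjusted p = 0.000167), -0.93 (0.17, 0.000945) and -0.96 (0.17, 0.000785). It was called without each library in turn in all 3 comparisons, at adjusted p up to 0.00341, 0.0161 and 0.0148. BRD without CHIR, in the same series, had 67.8 and 78.0 CPM at 6 h and 72.4 and 87.3 at 24 h, between the AA endoderm and the compound endoderms. ATP5ME, subunit e of the membrane part (chr4:672436-674338), had 41.3 and 35.1 CPM in AA, 23.0 and 20.2 in BRD, 22.7 and 20.5 in JNJ and 23.6 and 32.2 in BRD+LoAA endoderm. It was called lower for BRD (log2 -0.83, edgeR adjusted p = 0.00498) and JNJ (log2 -0.83, 0.00552), but without AA replicate 1 the adjusted p were 0.0698 and 0.0759. ATP5MD, another small membrane subunit, was called for BRD+LoAA (37.2 and 28.1 against 18.3 and 21.4 CPM, log2 -0.73, edgeR adjusted p = 0.0173), which became 0.211 without AA replicate 1.

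Complex I had calls in both directions. NDUFA6 (chr22:42085525-42090955), an accessory subunit of the peripheral arm, had 79.0 and 72.4 CPM in AA, 35.7 and 42.4 in BRD, 51.7 and 62.5 in JNJ and 51.8 and 48.8 in BRD+LoAA endoderm. No compound library reached the AA libraries. It was called for BRD (log2 -0.95, SE 0.14, edgeR adjusted p = 0.000181) without each library in turn, and for BRD+LoAA (log2 -0.59, edgeR adjusted p = 0.00775, but 0.0819 without AA replicate 1). NDUFA7 (chr19:8308768-8321396) had 9.32 and 10.1 CPM in AA and 3.45 and 4.58 in JNJ, 3.90 and 5.11 in BRD+LoAA and 5.92 and 6.35 in BRD endoderm. It was called for JNJ (log2 -1.26, edgeR adjusted p = 0.00853, 0.0642 without JNJ replicate 1) and BRD+LoAA (log2 -1.11, 0.0177, 0.102 without BRD+LoAA replicate 1). NDUFB3 was called for BRD+LoAA only (19.2 and 11.2 against 9.83 and 7.19 CPM, log2 -0.85, edgeR adjusted p = 0.0488, 0.502 without AA replicate 1).

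Calls above AA endoderm were made in JNJ endoderm. NDUFV2 (chr18:9102630-9134345), an iron-sulphur subunit of the NADH-oxidising tip, had 42.7 and 42.5 CPM in AA and 49.1 and 72.4 in JNJ endoderm (log2 0.52, SE 0.17, edgeR adjusted p = 0.0365). Its adjusted p was 0.433 without JNJ replicate 2, which alone held the high value.

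Complexes II, III and IV each had a gene that was lower with more than 1 compound. SDHB (chr1:17018722-17054170) had 32.7 and 31.9 CPM in AA, 17.4 and 20.1 in BRD, 15.8 and 20.3 in JNJ and 19.0 and 26.7 in BRD+LoAA endoderm. The changes for BRD (log2 -0.78, edgeR adjusted p = 0.00958) and JNJ (log2 -0.83, 0.00742) were called, but were at 0.0622 without AA replicate 1 and 0.0718 without JNJ replicate 1. The other complex II genes were not called in any of these comparisons. UQCRC1 (chr3:48599002-48610976), a core subunit of complex III, had 75.1 and 70.6 CPM in AA, 44.6 and 45.9 in BRD, 46.8 and 50.5 in JNJ and 56.8 and 58.9 in BRD+LoAA endoderm. It was called for BRD (log2 -0.69, SE 0.14, edgeR adjusted p = 0.00167, at most 0.025 without any 1 library) and JNJ (log2 -0.58, 0.0059, but 0.0627 without AA replicate 1). COX7B (chrX:77899438-77907373), a small subunit of complex IV, had 43.3 and 38.5 CPM in AA, 20.6 and 23.9 in BRD, 17.8 and 16.8 in JNJ and 21.7 and 28 in BRD+LoAA endoderm. All 3 changes were called, at log2 -0.88 (edgeR adjusted p = 0.00608), -1.25 (0.000627) and -0.73 (0.0209). The JNJ call held without each library in turn, at adjusted p up to 0.0116, while the BRD call had 0.064 without AA replicate 1 and the BRD+LoAA call 0.149 without BRD+LoAA replicate 1. COX6A1, the widespread isoform of another complex IV subunit (chr12:120438090-120440742), had 76.9 and 67.5 CPM in AA, 42.3 and 43.8 in BRD, 46.8 and 64.8 in JNJ and 47.6 and 49.8 in BRD+LoAA endoderm. It was called for BRD (log2 -0.75, edgeR adjusted p = 0.00833, 0.088 without AA replicate 1) and BRD+LoAA (log2 -0.57, 0.0391, 0.228 without AA replicate 1).

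**Figure D3:**
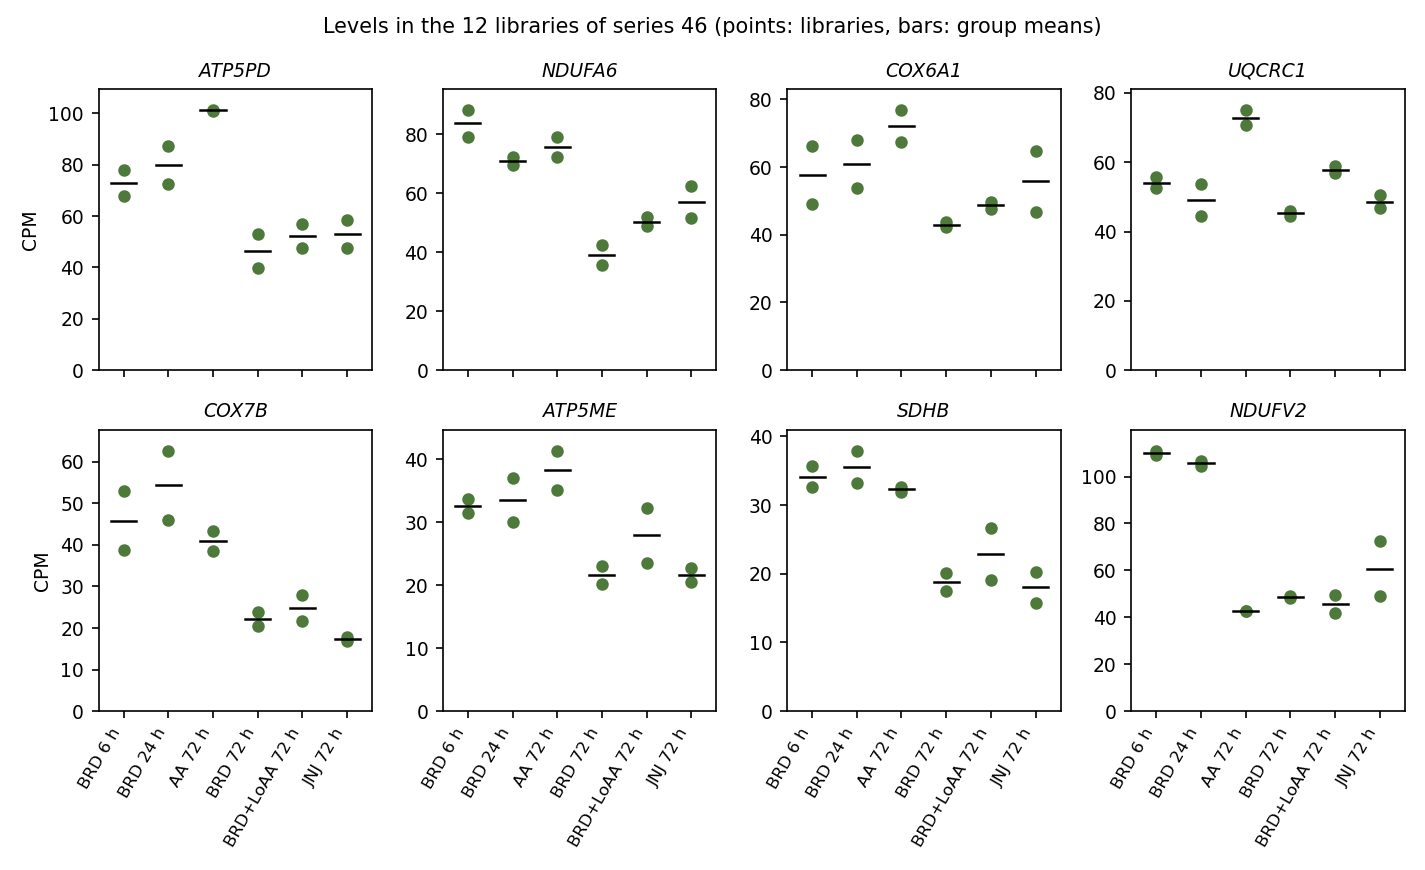
Levels in CPM of 8 subunit genes in the 12 libraries of series 46 (points: libraries, bars: group means of 2). For each gene but NDUFV2 the 6 compound-made endoderm libraries lie below both AA libraries, while NDUFV2 stands at 104.7 to 111 CPM in BRD without CHIR and at 72.4 or less at 72 h.

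A further 7 genes were called lower for BRD: COX6C, NDUFAB1, ATP5MF, ATP5MD, NDUFB7, NDUFS5 and NDUFB11, with log2 changes from -0.89 to -0.58 and edgeR adjusted p from 0.0103 to 0.0321. How many calls there were changed when 1 library was left out. Such a fit also has less power, and its share of all genes called is not reported here. Without AA replicate 1 the nuclear calls became 4 of 84 tested for BRD (ATP5PD, NDUFA6, NDUFAB1 and UQCRC1), 3 for JNJ (ATP5PD, COX7B and NDUFA7) and 1 for BRD+LoAA (ATP5PD). Without BRD+LoAA replicate 1 the BRD+LoAA calls became 3. With 1 library in an arm the spread is taken from the other groups.

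The mitochondrially encoded genes had no call between the 72 h groups. Their sums were 9592 ± 605 CPM in AA, 10040 ± 1297 in BRD, 9909 ± 1472 in JNJ and 9261 ± 447 in BRD+LoAA endoderm (SD, n = 2), with overlapping libraries. Medians of the 13 genes were -0.19, -0.11 and -0.18. Of them, 1, 0 and 0 were at an unadjusted p under 0.05 in edgeR (7.69, 0 and 0%, against 35.6, 32.8 and 34.9% of all genes). CYCS, the mobile electron carrier, had 155 and 144 CPM in AA, 126 and 94.7 in BRD, 112 and 119 in JNJ and 130 and 151 in BRD+LoAA endoderm, and was not called by edgeR. DESeq2 (adjusted p = 0.0305) and limma-voom (0.0393) called CYCS lower in BRD endoderm, as did edgeR without BRD replicate 1 (0.0171).

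Direct comparisons were made of BRD+LoAA with BRD and of BRD with JNJ endoderm, and no member was called by edgeR. BRD+LoAA against BRD had no call among nuclear or mitochondrially encoded members, beside 0.0% of all genes, and 7 of 83 nuclear members were at an unadjusted p under 0.05 (8.43%, against 7.27% of all genes). The largest differences were in ATP5MF, a membrane subunit of ATP synthase (24.0 ± 2.17 against 12.9 ± 1.91 CPM, log2 0.89, 95% interval 0.32 to 1.46, edgeR adjusted p = 0.531), NDUFS8 (0.86, 95% interval 0.20 to 1.52) and NDUFA2 (-0.58, 95% interval -1.42 to 0.26). BRD against JNJ had no member called, beside 0.00692% of all genes, and 6 of 83 were at an unadjusted p under 0.05 (7.23%, against 4.35%). The largest differences there were in NDUFS5 (-0.66, 95% interval -1.30 to -0.03), NDUFB11 (-0.60, 95% interval -1.26 to 0.06) and NDUFA7 (0.60, 95% interval -0.17 to 1.37). DESeq2 and limma-voom called none in either comparison, and the intervals do not show that the compounds act alike.

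Other measures moved with the 72 h groups. Against AA endoderm, the 3 pluripotency markers (POU5F1, SOX2 and NANOG) were higher in each compound-made endoderm, by medians of 1.02, 1.35 and 1.21, and the 3 mitotic markers (MKI67, TOP2A and CCNB1) were lower, by -0.98, -0.93 and -0.86. Of 4 endoderm markers, 2, 2 and 3 were lower and 1 higher, of 4 streak markers 3 were lower and 1 higher each time, and 2 of 3 extraembryonic or amnion markers were higher, by medians of 4.41, 4.43 and 4.41. Both mesoderm markers that were tested had no call, and 1 of 2 blood or endothelium markers was lower. The part of these markers in the lower subunit levels was not tested. Medians were also taken by transcript length. Of the 83 members, 65 have a median coding-transcript length under 1000 bases, and their medians were -0.32, -0.20 and -0.18, beside -0.10, -0.18 and -0.24 for the longer members. The 3095 other short genes had medians of -0.06, -0.03 and -0.05, and the longer ones 0.05, 0.03 and 0.04. Short members were below long ones for BRD, close to them for JNJ and above them for BRD+LoAA. The part of length in the result was not tested.

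Genes around the machinery had calls in both directions. Over all genes, 12.4, 10.9 and 11.5% were called lower and 11.8, 10.5 and 10.4% higher in BRD, JNJ and BRD+LoAA endoderm. The lists were not tested against these shares. Of 18 genes of the TCA cycle and pyruvate dehydrogenase, 3, 2 and 3 were lower and 1, 1 and 0 higher in BRD, JNJ and BRD+LoAA endoderm (medians -0.17, -0.18 and -0.17). PDHA1 and PDHB, the subunits of the pyruvate dehydrogenase component that links glycolysis to the cycle, fell in each: PDHA1 by 1.46, 1.46 and 1.16 and PDHB by 1.07, 0.93 and 0.96 on the log2 scale (edgeR adjusted p of PDHA1 2.37e-05, 2.91e-05 and 0.000217). AA endoderm had a mean of 129 CPM of PDHA1 and 312 of PDHB. Of 10 carriers and porins, 2, 2 and 1 were lower, with VDAC2, a pore of the outer membrane, called each time (-0.77, -0.61 and -0.70). Of 47 assembly factors, 2, 3 and 3 were lower and 2, 1 and 4 higher. ATPAF2, which helps assemble the catalytic head of ATP synthase, was among the lower ones each time (31.2 CPM in AA and 10.8, 10.3 and 9 CPM in BRD, JNJ and BRD+LoAA endoderm), as was COX17, a copper chaperone for complex IV. SDHAF3, an assembly factor of complex II, was higher each time (log2 1.18, 1.44 and 1.59). Of 20 genes of mitochondrial biogenesis and mitochondrial DNA expression, LRPPRC, which stabilises mitochondrial messenger RNAs, rose by 0.62, 0.59 and 0.54 in log2. Calls on this list numbered 2 higher and 1 lower, 2 and 0, and 3 and 1.

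From 6 h to 24 h with BRD without CHIR, 1 of 83 nuclear subunit genes was called, and 6 were at an unadjusted p under 0.05 in edgeR (7.23%, against 29% of all genes). NDUFS4, an accessory subunit of complex I, had 101.5 and 123.5 CPM at 6 h and 183 and 132.5 at 24 h (log2 0.48, edgeR adjusted p = 0.0485), beside 7.0% of all genes called higher and 8.4% lower. The adjusted p was 0.383 without 24 h replicate 1 and 0.338 without 6 h replicate 1, so the call rests on single libraries. UQCRQ (-0.66), NDUFA9 (0.52) and NDUFC2 (-0.48) had the next largest changes and edgeR adjusted p of 0.0595, 0.18 and 0.259. CYCS had 271 and 328 CPM at 6 h and 239.6 and 202 at 24 h. Of the biogenesis list, 6 of 20 fell and 1 rose, with PPRC1, a coactivator of respiratory gene expression, at log2 -1.11 (edgeR adjusted p = 0.000298), TWNK, the mitochondrial DNA helicase, at -0.90 and TFAM, which packages and transcribes mitochondrial DNA, at -0.55. Of the assembly factors 6 of 47 fell and 2 rose. The mitochondrially encoded genes had no call and none at an unadjusted p under 0.05 in edgeR, and the 24 h libraries differed widely, with 16280 and 27440 CPM in sum at total depths of 6748301 and 49503832 counts.

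AA endoderm at 72 h against BRD without CHIR at 24 h is a contrast within series 46 in which time, treatment and sorting changed together and cannot be told apart. In it 23 of 83 nuclear members were lower and 1 higher (27.7% lower, against 21.8% of all genes lower and 23.0% higher), with a median of -0.28 beside -0.01. All 13 mitochondrially encoded genes were lower, with a median of -2.27. NDUFV2 had 104.7 and 106.8 CPM at 24 h and 42.7 and 42.5 at 72 h (log2 -1.31, SE 0.16, edgeR adjusted p = 1.1e-05). COX7C, a small subunit of complex IV, had 167 and 216 CPM at 24 h and 74.99 and 89.5 at 72 h (log2 -1.23, edgeR adjusted p = 0.000239), and SDHA, the flavoprotein subunit of complex II, had 79.9 and 90.5 against 49.5 and 53.5 (log2 -0.73, 0.00054). The groups did not overlap for any of these genes. NDUFC1 (-0.91) and the c-subunit genes ATP5MC2 (-0.84) and ATP5MC1 (-1.32) followed with edgeR adjusted p of 0.000655, 0.000728 and 0.000854. CYCS (-0.56, edgeR adjusted p = 0.00865), SDHD (-0.55, 0.00974) and ATP5IF1 (-0.69, 0.042) were lower as well. CYCS and SDHD were not called without 24 h replicate 1 or without AA endoderm replicate 2 (adjusted p up to 0.0715 for CYCS and 0.0927 for SDHD). ATP5IF1 kept its call only without 24 h replicate 1, with an adjusted p of 0.605 without 24 h replicate 2. UQCRC1 was the member that rose, from 44.5 and 53.9 to 75.1 and 70.6 CPM (log2 0.56, edgeR adjusted p = 0.00312). Without AA endoderm replicate 2 the nuclear calls became 11.

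Among the mitochondrially encoded genes, MT-CO1 changed least in this contrast. It had 9828 and 9405 CPM at 24 h and 6578 and 7550 at 72 h (log2 -0.45, edgeR adjusted p = 0.0372, not called without any 1 of these libraries). MT-CO3 had the smallest adjusted p (1806 ± 806 against 383 ± 61.8 CPM, SD, n = 2, log2 -2.24, edgeR adjusted p = 2.16e-06), and MT-ATP8 the largest change (log2 -4.16, edgeR adjusted p = 0.0004). MT-ATP8 had 114 and 1068 CPM in the 24 h libraries and 37.8 and 28.1 at 72 h, so the size of its change rests on 1 library. Besides MT-CO1, MT-ND3 lost its call when a library was left out, at an adjusted p of 0.0623 without 24 h replicate 2. Their near-identical nuclear copies, named above, hold here too. Of the other lists, 17 of 47 assembly factors and 6 of 20 biogenesis genes were lower and 4 and 3 higher. Over all genes, 21.8% were called lower and 23.0% higher. PPARGC1B, a coactivator of mitochondrial biogenesis, fell by 3.82 on the log2 scale, while PDHB (1.26) and PDHA1 (1.44) rose.

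In single cells, 4193 of 6244 barcodes at 36 h, 4511 of 6321 of endoderm and 5632 of 6266 of mesoderm were kept (at least 500 genes and at most 10% mitochondrial counts). Median depth differed, at 21152, 7680 and 7873.5 UMIs per cell. The limit on mitochondrial counts removed 2051 barcodes (32.8%) at 36 h, 347 (5.49%) of endoderm and 586 (9.35%) of mesoderm. Pairs of libraries shared 50 to 56 barcode sequences, 1 of them in all 3. SOX17 was at 0, 122 and 0 CPM, CER1 at 139, 2963 and 0.0887, and TBX6 at 5.54, 7.58 and 82.1 (36 h, endoderm and mesoderm). CXCR4, of the endoderm list, was at 0.389, 143 and 63.9 CPM, and PDGFRA, of the mesoderm list, at 3.07, 19.7 and 18.9. With 1 library per group no difference below has a replicate check, intervals cover counting error only, and time, lineage and library cannot be told apart.

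Nuclear subunits took 3.94% of UMIs at 36 h (exact binomial 95% interval 3.94 to 3.95), 2.69% in endoderm (2.68 to 2.69) and 3.06% in mesoderm (3.06 to 3.07). Mitochondrially encoded subunits took 3.05%, 2.50% and 3.44%. Endoderm had the smallest share of both. Mesoderm had the largest mitochondrial share among the cells kept, but over all deposited barcodes the shares were 4.1, 2.76 and 3.79%, with 36 h above mesoderm. Ribosomal protein genes took 37.1, 42.4 and 41.1% of UMIs. With these and mitochondrial counts out of the denominator, the nuclear shares were 6.59, 4.88 and 5.53%, in the same order. By complex, nuclear genes of complex I summed to 12470, 8007 and 9533 CPM, of complex II to 491, 272 and 300, of complex III to 4718, 3386 and 3679, of complex IV to 9843, 7630 and 8314 and of complex V to 10920, 7391 and 8476. Endoderm was lowest and 36 h highest for each complex.

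Most subunit genes were lower at 72 h, by moderate ratios. Among members that reached 50 CPM in 1 library of the pair, 71 of 78 were lower in endoderm than at 36 h (91.0%, against 64.6% of all such genes), with a median log2 ratio of -0.64 (all genes: -0.38). At least 2-fold lower were 15 (19.2%, against 22.9% of all such genes), and 1 was 2-fold higher (1.28% against 12.8%). In mesoderm 71 of 78 were lower as well (91.0% against 59.7%), with a median of -0.47 (all genes: -0.17), 8 at least 2-fold lower (10.3% against 8.41%) and 1 higher (1.28% against 6.98%). Between endoderm and mesoderm the median was -0.18 (all genes: -0.22), and 0 of 76 members differed 2-fold in either direction, beside 9.31% lower and 9.02% higher of all genes. Both 72 h ratios share the 36 h library.

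**Figure D4:**
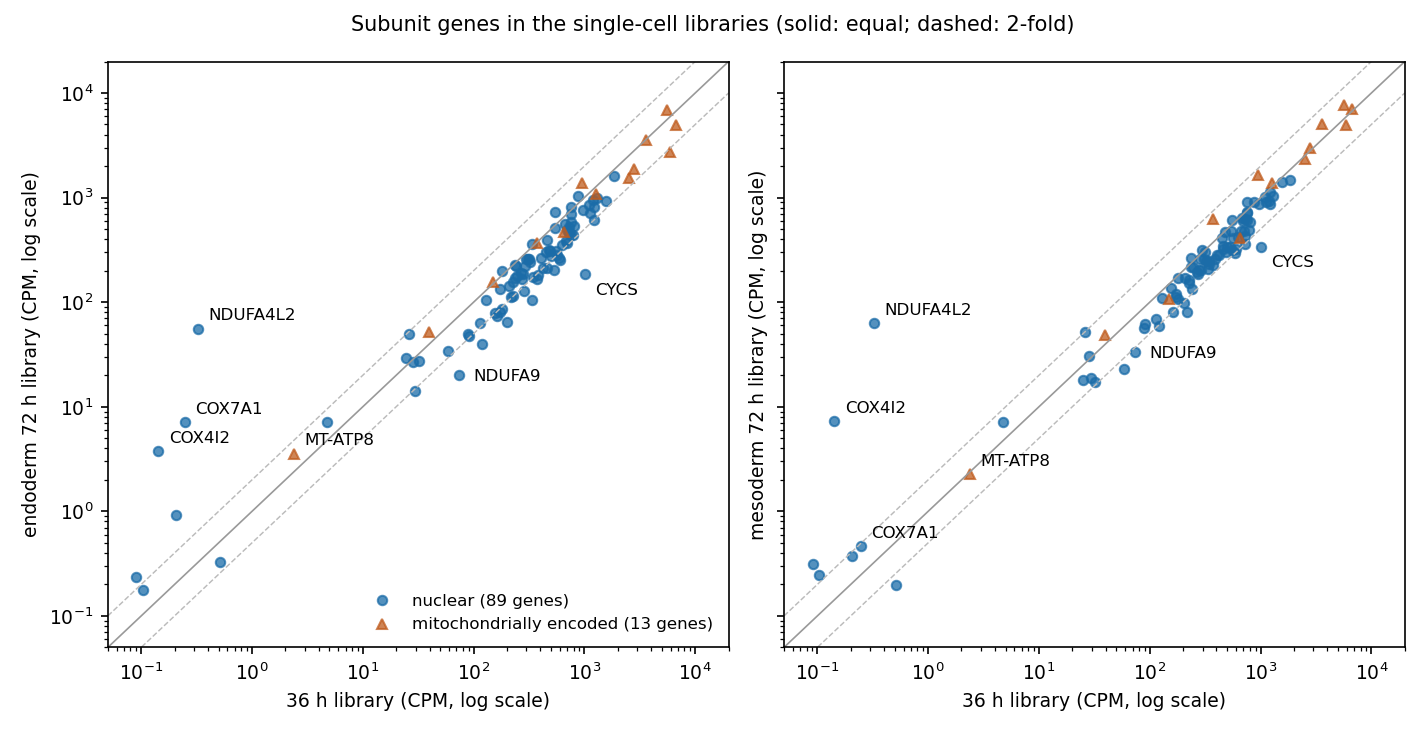
CPM of each subunit gene in the endoderm (left) and mesoderm (right) libraries at 72 h against the 36 h library, on log axes (circles: nuclear, triangles: mitochondrially encoded, solid line: equal, dashed lines: 2-fold). Most circles lie a little under the solid line, NDUFA4L2 stands far above it in both panels and CYCS below the lower dashed line.

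CYCS had the largest drop. It stood at 1005 CPM at 36 h, 187 in endoderm and 339 in mesoderm, which is 5.38-fold (5.25 to 5.52, exact 95% interval) and 2.96-fold (2.91 to 3.01) lower. Every 36 h cluster had more CYCS (807 to 1086 CPM) than any endoderm cluster (133 to 236) or mesoderm cluster (304 to 505). CYC1, the cytochrome of complex III that hands electrons to cytochrome c, had 272, 167 and 187 CPM.

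Complex I followed with NDUFA9, an accessory subunit near the quinone channel, at 73.9, 20.2 and 33.7 CPM, and NDUFS3, a core subunit, at 202, 65.2 and 98.6. NDUFA9 was 3.65-fold (3.37 to 3.96) and NDUFS3 3.10-fold (2.96 to 3.24) lower in endoderm than at 36 h. NDUFS6 had 601, 252 and 323 CPM. In mesoderm NDUFA13, an accessory subunit also known as GRIM-19, was 2.66-fold lower than at 36 h (81.2 against 216 CPM). In endoderm NDUFA13 was at 113 CPM. NDUFV2 was at 282 CPM at 36 h, 129 in endoderm and 256 in mesoderm, and its 1.99-fold lower level in endoderm than in mesoderm was the largest such gap among members that reached 50 CPM. NDUFA3 showed the largest gap the other way among these, at 221 CPM in endoderm and 133 in mesoderm.

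Complex V and complex II contributed as well. ATP5PB, subunit b of the peripheral stalk, had 333, 105.5 and 206 CPM, 3.16-fold (3.05 to 3.27) lower in endoderm than at 36 h. ATP5F1B, the catalytic beta subunit, had 592, 263 and 297 CPM. The 3 c-subunit genes, whose mature proteins are the same, went different ways: ATP5MC1 had 527, 202 and 337 CPM, while ATP5MC2 had 758, 819 and 915. SDHD, a membrane anchor of complex II, had 120, 39.5 and 59.3 CPM, and SDHA had 29.4, 14.2 and 18.9. ATP5IF1, the inhibitor of ATP synthase, had 676, 604 and 514 CPM.

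A few subunits were level or higher at 72 h. UQCRB, a subunit of complex III, had 547, 734 and 605 CPM, and ATP5F1E, the epsilon subunit of ATP synthase, had 866, 1038 and 912. UQCRHL had 26.3, 50.1 and 52.3 CPM, with the caveat on its near copy UQCRH. NDUFB3 (180.5, 198 and 169 CPM) and NDUFB11 (339, 360 and 245), accessory subunits of complex I, were near level between 36 h and endoderm.

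Isoforms of the same subunit differed in their ratios. NDUFA4L2, known as a hypoxia-induced relative of NDUFA4, was at 0.324 CPM at 36 h, 55.8 in endoderm and 62.6 in mesoderm, ratios of 172 (116 to 267) and 193 (131 to 299), while NDUFA4 had 1574, 926 and 1405 CPM. NDUFA4L2 thus was at the trace level of 25 UMIs in all at 36 h and a moderately expressed gene in both 72 h single-cell libraries, but not in bulk AA endoderm (values below). COX4I2, the lung and hypoxia isoform of COX4, was at 0.143, 3.76 and 7.25 CPM, and COX4I1, the widespread form, at 1223, 807 and 1143. COX7A1, the heart and muscle isoform, was at 0.246, 7.10 and 0.466 CPM, beside 1190, 948 and 933 of COX7A2. COX6A2, the other muscle isoform, stayed under 1 CPM throughout (0.518, 0.326 and 0.200), beside 810, 536 and 590 of COX6A1. COX7A1 was thus higher in endoderm than in both other libraries, at a low level.

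The share of cells with a UMI gave the same picture. NDUFA4L2 was seen in 25 of 4193 cells at 36 h (0.596%, exact 95% interval 0.386 to 0.879), 928 of 4511 of endoderm (20.6%, 19.4 to 21.8) and 1656 of 5632 of mesoderm (29.4%, 28.2 to 30.6). After thinning to 2000 UMIs per cell, which left out 777, 826 and 93 shallower cells, the shares were 0.0585% (2 of 3416), 8.85% (326 of 3685) and 10.9% (601 of 5539). No cell type known to lack NDUFA4L2 was set aside, so the 36 h share, from the deepest library, stands as the background here. COX7A1 had thinned shares of 0.0293, 1.44 and 0.108% and COX4I2 of 0.0293, 1.06 and 1.46%, each near the level of single UMIs in the first library. In bulk, by other chemistry, NDUFA4L2 was at 0.835 and 0.450 CPM in AA endoderm and between 0 and 4.26 in all 30 libraries. It did not pass the low-count filter in series 46. The 55.8 CPM of the endoderm single-cell library was thus not seen in bulk AA endoderm at 72 h, and the reason was not tested.

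Within the 72 h libraries NDUFA4L2 varied by cluster. Clusters are called by number, and no doublet caller was run. In mesoderm, cluster 2 (1412 cells, led by SSTR2, APLNR, CXCR4 and TBX6) had 116 CPM, and the other clusters reached down to 36.7. NDUFA4L2 was itself among the leading genes of that cluster, so this is a description. In endoderm the range was 28.3 to 76.0 CPM, and cluster 2, led by the mitotic genes CCNB1, MKI67 and TOP2A, was near its lower end. At 36 h no cluster was above 1.60 CPM. The nuclear share of UMIs varied less, from 3.59 to 4.63% over clusters at 36 h, 2.58 to 2.92% in endoderm and 2.99 to 3.37% in mesoderm.

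**Figure D5:**
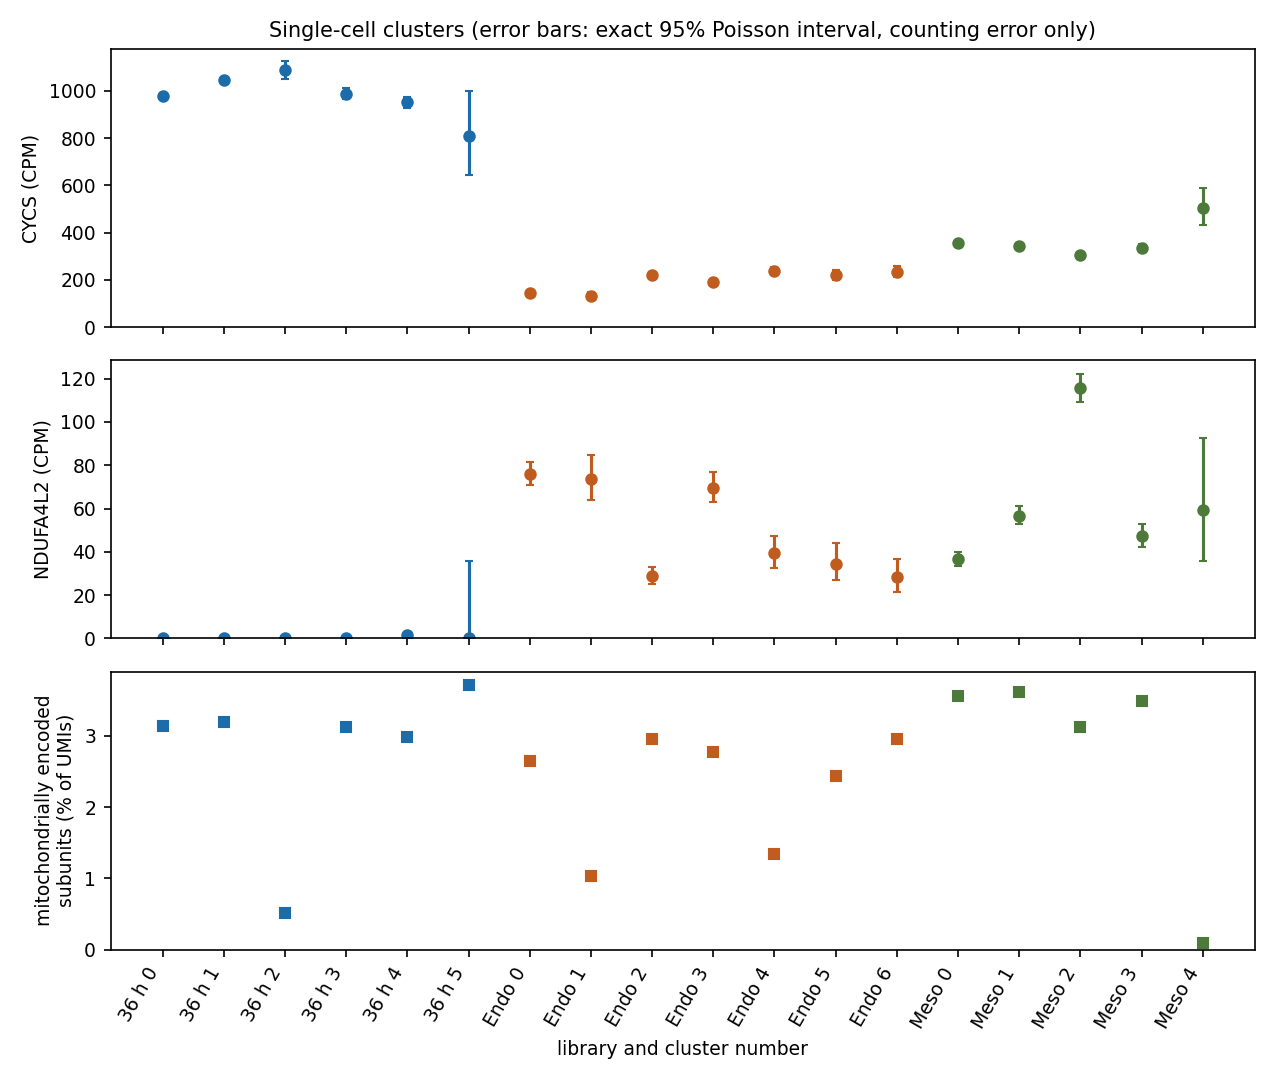
CPM of CYCS (top) and NDUFA4L2 (middle) with exact 95% Poisson intervals, and the mitochondrially encoded share of UMIs (bottom), in each cluster of the 3 single-cell libraries. CYCS is above 800 CPM in every 36 h cluster and at 505 or less elsewhere, NDUFA4L2 peaks at 116 CPM in mesoderm cluster 2, and the lowest mitochondrial share is 0.0892%, in mesoderm cluster 4.

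Mitochondrially encoded subunits followed the nuclear ones only in part. Of those above 50 CPM, 8 of 12 were lower in endoderm than at 36 h, and 4 of 11 in mesoderm. MT-CO1 had 5617 CPM at 36 h, 6949 in endoderm and 7749 in mesoderm, and MT-ND1, a core membrane subunit of complex I, had 948, 1383 and 1658. MT-CO3 went the other way, with 5873, 2706 and 4974 CPM, as did MT-CO2 (6699, 4941 and 7002), MT-CYB (2804, 1863 and 2979) and MT-ATP6 (2508, 1554 and 2332) in endoderm. MT-ND4 was level between 36 h and endoderm (3584 and 3532 CPM) and at 5101 in mesoderm. Median log2 ratios over the genes above 50 CPM were -0.13 (12 genes, endoderm against 36 h), 0.09 (11 genes, mesoderm against 36 h) and -0.43 (12 genes, endoderm against mesoderm). Some clusters of low depth had low mitochondrial shares: cluster 2 at 36 h (1099 cells, median 1787 UMIs) had 0.511%, endoderm cluster 1 (1089 cells, 2104 UMIs) 1.04% and mesoderm cluster 4 (118 cells, 2094 UMIs) 0.0892%. Others of low depth did not: cluster 5 at 36 h (21 cells, 2693 UMIs) had 3.72%, the highest of that library, and endoderm cluster 5 (402 cells, 2235 UMIs) had 2.43%. The part of depth in the mitochondrial shares was not tested.

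Of 22 assembly factors above 50 CPM, 8 were at least 2-fold lower in endoderm than at 36 h and 1 higher, beside 22.9% and 12.8% of all such genes (median log2 ratio -0.80), from NDUFAF4 at -1.96 to COA5 at 1.19. In mesoderm 3 of 22 were lower and none higher (median -0.35), beside 8.41% and 6.98% of all genes. Of the TCA cycle and pyruvate dehydrogenase genes above 50 CPM, 3 of 7 were at least 2-fold lower in endoderm than at 36 h (median -0.85). In mesoderm 3 of 9 were (median -0.72), with none higher in either. Only 3 of the 20 biogenesis genes were above 50 CPM, so most of that list was not compared. These 3 were at least 2-fold lower in endoderm than at 36 h (median -1.60), with TFAM at -1.91. In mesoderm 1 of the 3 was (median -0.88). Of 8 carriers and porins, 3 were at least 2-fold lower in endoderm and none in mesoderm. SLC25A4, which exchanges ADP and ATP, had the lowest log2 ratio of them (-1.45 in endoderm against 36 h, and -1.70 against mesoderm).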

How the data were processed

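Expected counts per gene for the bulk libraries were deposited by the authors in 1 table; the submitters' processing notes name Salmon 1.4.0, edgeR 3.34.0 and limma 3.48.1, and the genome build GRCh38. UMI counts per gene and cell were deposited by the authors as filtered matrices made with Cell Ranger 3.0.2, per the file headers. Expected counts were rounded, filtered with filterByExpr, scaled by TMM and tested with edgeR 4.0.16 (quasi-likelihood, Benjamini-Hochberg, threshold 0.05) within each library series in R 4.3.3. DESeq2 1.42.0, limma-voom (limma 3.58.1), other scaling, no low-count filter, all libraries of a time point whatever their series, the MTRNR2L genes left out, a replicate block and leaving out each library were the alternatives. The thinning of cells to 2000 UMIs and the test of time by treatment were chosen after seeing the data. Single cells were clustered with scanpy 1.11.5 (2000 variable genes, 30 components, 15 neighbours, Leiden resolution 0.5). No doublet caller was run.

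Genes named in a bulk comparison were all called members, or, beyond 12, the 6 with the smallest p in each direction; with fewer than 3 calls, the 3 largest changes among members of at least 5 CPM. Isoform pairs, the c-subunit genes, SDHA to SDHD, CYCS, CYC1 and ATP5IF1 were always followed. In single cells the 8 largest ratios in each direction among members of at least 50 CPM were candidates. The 7 further genes named for BRD fall outside this rule and were chosen after their values were seen. The members and gene lists were chosen with earlier results of these data known. Scripts were tested on simulated data. One called member is counted but not reported here.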

Additional observations from a re-analysis of the deposited data

Results flagged for a closer look

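Barcodes left out for over 10% mitochondrial counts carried a mitochondrially encoded signal that no comparison used. Their share of UMIs was 17.6% at 36 h (2051 barcodes, exact 95% interval 17.58 to 17.64), 22.3% in endoderm (347 barcodes, 22.16 to 22.39) and 27.5% in mesoderm (586 barcodes, 27.44 to 27.65). In the cells kept it was 3.05, 2.505 and 3.44%. The limit on mitochondrial counts itself separates these barcodes from the cells kept, so the gap follows from the selection and is no finding. The limits that a count of 0 allows were 5.01e-05, 0.000596 and 0.000441%. Nuclear subunits took 3.86, 1.84 and 2.41% of the other UMIs of those barcodes.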

How the results depend on the processing

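No called gene changed sign, but 121 gene results that were not called changed sign in 190 of their settings. The order of the mitochondrially encoded shares of 36 h and mesoderm turned over with all deposited barcodes. Of 165 counts of called members under an alternative, 148 were within 1.5 times the value reported. These include counts of 0 where 0 was reported, as in most comparisons. The other 17 counts fell in 10 of the 16 comparisons. The share of all genes called under each alternative is not reported here. DESeq2 called 2, 1, 3 and 2 members at 24 h for AA+CHIR, BRD+CHIR and JNJ+CHIR against CHIR and for BRD+CHIR against JNJ+CHIR, where edgeR called 0. For BRD without CHIR from 6 h to 24 h the count of 1 became 0 with DESeq2's size factors, 3 with DESeq2, 5 with limma-voom and 0 with the replicate block. Leaving out 1 library gave 0 to 1 calls for AA+CHIR against CHIR at 6 h and for BRD without CHIR, 4 to 14 for BRD, 3 to 10 for JNJ and 1 to 7 for BRD+LoAA against AA endoderm, and 11 to 21 for AA endoderm against BRD without CHIR. The cause was not tested. With the replicate block the counts against AA endoderm were 14, 8 and 6 for BRD, JNJ and BRD+LoAA; same-numbered libraries did not deviate together (correlations from -0.12 to 0.15), so the numbers do not pair the samples.

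The nuclear share of UMIs at 36 h, in endoderm and in mesoderm was 3.89, 2.67 and 3.04% over all deposited barcodes, and 6.59, 4.88 and 5.53% with ribosomal protein and mitochondrial counts out of the denominator. The mitochondrially encoded share was 4.1, 2.76 and 3.79% over all barcodes, 2.86, 2.42 and 3.3% with a limit of 5% mitochondrial counts, and 5.1, 4.55 and 6.2% with the smaller denominator. With the limit of 5% the nuclear share was 3.96% at 36 h and 3.07% in mesoderm.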
